A study of Sus scrofa domesticus with 4 samples.

Results

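This account covers 8 genes of the NF-kappaB pathway in porcine endometrium, the lining of the uterus: NFKB1, NFKBIA, TNFAIP3, TNFAIP6, BIRC3, ICAM1, VCAM1 and SELE. Members were found by matching the RefSeq identifier of each non-control probe to one of these symbols. Of the 8 genes, 7 had a matching probe, with 10 probes among 43603 in all, and 3029 genes of the array could be named in this way. As many as 36903 probes got no gene name, so a gene without a match may still have a probe. No probe matched BIRC3, an inhibitor of apoptosis protein, and it was dropped. Of the 10 probes, 8 probes of 6 genes passed the signal filter, which needs a spot well above background on all 4 arrays in treated RNA or in untreated RNA. Both SELE probes missed it.

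The study used 4 gilts (Large White x Polish Landrace, 7 to 8 months old, 120 to 130 kg), all pregnant and at days 15 to 16 of gestation. One group of endometrial explants was exposed for 24 h to 10 nM orexin B, a hypothalamic peptide that acts through 2 G protein-coupled receptors. The other group, untreated explants, went through the same 2 h of preincubation and the same 24 h of culture with no peptide added. Each of 4 two-colour Agilent arrays held treated and untreated RNA together, and each array's dye labels put treated RNA in Cy5 for arrays 1 and 3, but in Cy3 for arrays 2 and 4. The cultures were run in duplicate in 4 separate experiments. Which gilt gave the RNA of which array is not stated, so n counts arrays. The p-values measure the spread between arrays that is left after a dye term is fitted, moderated over all tested probes. An explant holds epithelium, stroma, vessels and leukocytes, and in such bulk RNA fewer cells of a type and less RNA per cell cannot be told apart.

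NF-kappaB is a family of dimeric transcription factors that inhibitors of the IkappaB family keep in the cytoplasm. Inflammatory signals such as tumour necrosis factor, interleukin 1 and Toll-like receptor ligands activate a kinase complex that marks the inhibitor for destruction, and the freed dimer enters the nucleus. Its targets include its own inhibitors, which close a negative feedback loop, and the adhesion molecules by which endothelium captures leukocytes. In pigs, conceptuses release interleukin 1 beta around attachment, and the endometrium responds with NF-kappaB activity.

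The arrays set the precision of what follows. Of the 43803 spots, the share well above background in Cy5 ran from 46.8% on array 2, which was scanned apart from the other 3 arrays, to 86.7% on array 3. In Cy3 the share was 27.8% to 36.2%, and 0 spots were saturated. PGR, ESR1, IHH and SPP1, genes that mark endometrium, all had tested probes. Tested member probes stood 12.1 times or more above local background in every channel. For SELE, spot signal over background was 3.47 to 12.3 in Cy5 and 5.25 to 13.0 in Cy3.

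ICAM1 and TNFAIP3 had the lowest ratios of treated over untreated RNA among the members, NFKBIA came next, and VCAM1 and TNFAIP6 stood near 0. ICAM1 was at a log2 ratio of -0.58 ± 0.18 (moderated standard error of the fit, n = 4), TNFAIP3 at -0.54 ± 0.19, and the brighter NFKBIA probe at -0.38 ± 0.20. The limma fit called 0 of the 8 tested member probes at an adjusted p under 0.05, against 0% of all 13778 tested probes. At an unadjusted p under 0.05, 2 of the 8 passed, ICAM1 and TNFAIP3, both lower. Over all tested probes that share was 3.59%. For lower probes alone it was 1.87%, and for lower ratios among the 1637 tested named genes it was 3.91%. Neither gene passed that threshold with each array centred on its median (limma unadjusted p = 0.429 for ICAM1 and 0.183 for TNFAIP3) or with treated RNA read as Cy5 on all arrays (0.208 and 0.0852). Without a dye term in the fit, ICAM1 passed (0.0354) and TNFAIP3 did not (0.0749). A fitted ratio below 0 was found for 7 of the 8 member probes, for 46.9% of all tested probes and for 56.1% of the tested named genes. The median over the 8 probes was -0.27, beside 0.02 over all tested probes and -0.02 over the 1637 tested named genes.

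**Figure D1:**
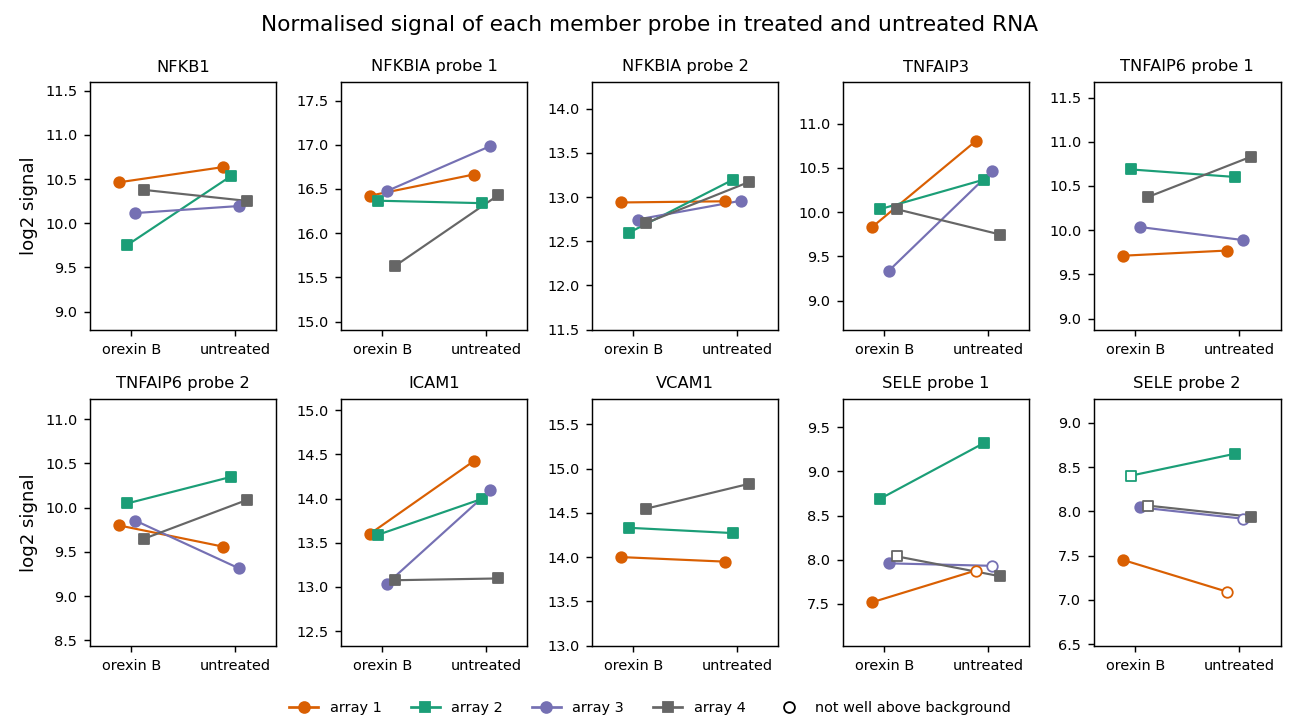
Normalised log2 signal of each member probe in orexin B treated (left) and untreated (right) RNA, with a line for each array and hollow points where the spot was not well above background. Levels are comparable within a panel and not between panels. Treated and untreated signals of NFKBIA probe 2 do not overlap, and those of every other panel do.

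NFKB1 encodes p105, which is processed to the p50 subunit of NF-kappaB, and it is the only subunit gene measured here. Its log2 signal on arrays 1 to 4 was 10.46, 9.75, 10.12 and 10.38 in treated RNA, against 10.63, 10.53, 10.19 and 10.25 in untreated RNA. The groups overlap, and array 2 holds by far the widest gap. The log2 ratios were -0.17, -0.78, -0.08 and 0.13, and the fitted ratio was -0.23 ± 0.21 (95% interval -0.71 to 0.26, limma unadjusted p = 0.310, adjusted p = 0.999). Arrays 1, 3 and 4, which were scanned together, gave -0.00017, whereas arrays 1, 2 and 3 gave -0.45 (limma unadjusted p = 0.0695), so the size of the ratio turns on arrays 2 and 4. RELA, the usual partner of p50, had a probe that missed the signal filter.

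NFKBIA encodes IkappaB alpha, the inhibitor that NF-kappaB quickly induces on its own activation. Its brighter probe (probe 1) read 16.42, 16.37, 16.47 and 15.63 in treated RNA on arrays 1 to 4, against 16.66, 16.34, 16.98 and 16.43 in untreated RNA. The treated value was lower on 3 of 4 arrays, and the groups overlap. The fitted log2 ratio was -0.38 ± 0.20 (95% interval -0.86 to 0.10, limma unadjusted p = 0.104, adjusted p = 0.999). Its per-array values were -0.24, 0.03, -0.51 and -0.80. Leaving out array 4 gave -0.17 and leaving out array 2 gave -0.59.

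The second NFKBIA probe gave 12.94, 12.60, 12.75 and 12.70 in treated RNA, against 12.95, 13.20, 12.96 and 13.17 in untreated RNA. Here every treated value lay below every untreated one, though on array 1 by 0.01 only. The mean level was 12.75 ± 0.14 in treated RNA and 13.07 ± 0.13 in untreated RNA (SD, n = 4 each), and the fitted log2 ratio was -0.32 ± 0.17 (limma unadjusted p = 0.101, adjusted p = 0.999). Levels lower in treated RNA with no overlap were found for 1 of the 7 member probes measured on all arrays and for 0.199% of all tested probes with 4 values. The 2 NFKBIA probes are of the same transcript record and gave similar fitted ratios, but on single arrays they differed by up to 0.62.

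TNFAIP3 encodes A20, a ubiquitin-editing enzyme that shuts off signalling from tumour necrosis factor and Toll-like receptors. It had log2 signals of 9.83, 10.03, 9.33 and 10.03 in treated RNA on arrays 1 to 4, against 10.80, 10.37, 10.47 and 9.75 in untreated RNA. Treated RNA was lower on 3 of 4 arrays and higher on array 4, and the groups overlap. Mean levels were 9.81 ± 0.33 in treated RNA and 10.35 ± 0.44 in untreated RNA (SD, n = 4 each).

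The per-array log2 ratios of TNFAIP3 were -0.97, -0.33, -1.13 and 0.29, for a fitted ratio of -0.54 ± 0.19, or 1.45 times lower (95% interval -0.98 to -0.09, limma unadjusted p = 0.0242, adjusted p = 0.999). By unadjusted p it ranked 204 of 13778 probes. The ratio averaged -1.05 on the 2 arrays with treated RNA in Cy5 and -0.02 on the 2 arrays with treated RNA in Cy3, so the size went with the dye orientation. The dye term of its fit was -0.52 (limma unadjusted p = 0.0289, adjusted p = 0.318), and 14.2% of all tested probes had a dye term at an unadjusted p under 0.05. Whether dye or the animals of those arrays set the gap cannot be told apart. Fits to 3 of the arrays gave -0.69 to -0.38, and the unadjusted p was 0.0657, 0.116 and 0.105 without arrays 1, 2 and 3.

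ICAM1 encodes the intercellular adhesion molecule of endothelium, epithelium and leukocytes, to which beta 2 integrins bind. Its log2 signals on arrays 1 to 4 were 13.60, 13.59, 13.03 and 13.08 in treated RNA, against 14.42, 14.00, 14.09 and 13.10 in untreated RNA. Treated RNA was lower on 4 of 4 arrays, by a wide margin on arrays 1 and 3 and by 0.02 on array 4. The groups overlap because untreated RNA of array 4 was low. The means were 13.33 ± 0.31 in treated RNA and 13.90 ± 0.57 in untreated RNA (SD, n = 4 each).

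The ICAM1 log2 ratios were -0.82, -0.40, -1.06 and -0.02. The fitted ratio was -0.58 ± 0.18, or 1.49 times lower (95% interval -0.998 to -0.16, limma unadjusted p = 0.0143, adjusted p = 0.999), and it ranked 118 of 13778 probes. Lower on every array were 2 of the 7 member probes with 4 values, ICAM1 and the second NFKBIA probe, against 3.67% of all such probes. The average was -0.94 with treated RNA in Cy5 and -0.21 with treated RNA in Cy3, beside a dye term of -0.36 (limma unadjusted p = 0.0806, adjusted p = 0.397). Fits to 3 of the arrays gave -0.67 to -0.48, and the unadjusted p was 0.0586 without array 2 and 0.0845 without array 3. With each array centred on its median in place of loess, ICAM1 was at -0.16, while the median of all tested probes moved to 0.28, which puts ICAM1 at -0.44 relative to it.

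VCAM1 encodes the endothelial and stromal ligand of the integrin alpha 4 beta 1 and is induced by the same cytokines as ICAM1. Its spot on array 3 was marked as an outlier by the scanner software and was left out, so its fit rests on 3 arrays. Signals on arrays 1, 2 and 4 were 14.00, 14.33 and 14.55 in treated RNA, against 13.95, 14.27 and 14.83 in untreated RNA. The groups overlap widely. The ratios were 0.05, 0.06 and -0.28, and the fitted log2 ratio was -0.03 ± 0.23 (95% interval -0.59 to 0.53, limma unadjusted p = 0.900, adjusted p = 0.999), an interval that also holds the ICAM1 estimate. On the 3 shared arrays ICAM1 minus VCAM1 ranged from -0.87 to 0.26, with ICAM1 lower on 2 of them, so the data do not separate the 2 genes.

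SELE encodes E-selectin, which activated endothelium displays to slow passing leukocytes. Probe 1 was well above background on 3 of 4 arrays in treated RNA and on 2 of 4 arrays in untreated RNA, and probe 2 on 2 of 4 in each. By dye, both probes were above background on 4 of 4 arrays in Cy5, but in Cy3 probe 1 was so on 1 and probe 2 on 0. The log2 ratios of probe 1 were -0.36, -0.63, 0.03 and 0.23, and those of probe 2 were 0.36, -0.25, 0.13 and 0.13. The probes differed in sign on 1 array and by up to 0.72. Neither probe was in the main test. In a fit without the signal filter, probe 1 was at -0.18 ± 0.18 and probe 2 at 0.09 ± 0.13 (limma adjusted p = 0.926 and 0.938).

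**Figure D2:**
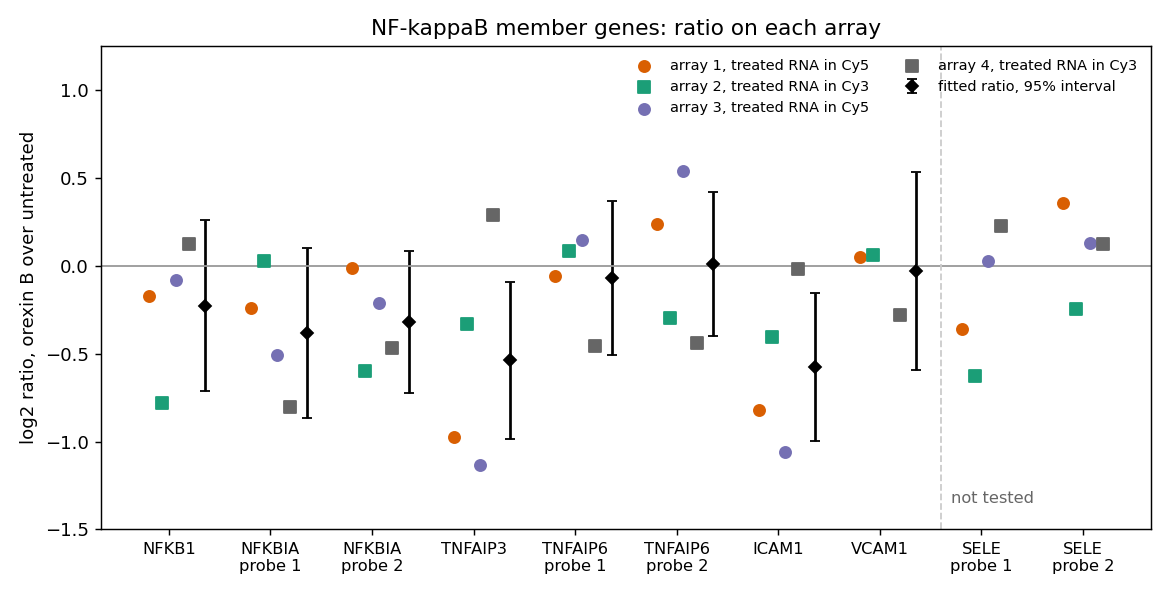
Log2 ratio of treated over untreated RNA on each array for the 10 member probes, with circles for treated RNA in Cy5 and squares for treated RNA in Cy3. Diamonds give the fitted ratio with its 95% interval. For TNFAIP3 and ICAM1 the circles lie at or below -0.82 and the squares between -0.40 and 0.29.

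TNFAIP6 encodes TSG-6, a secreted protein that transfers heavy chains of inter-alpha-inhibitor onto hyaluronan and that inflammatory cytokines induce. Its brighter probe (probe 1) read 9.71, 10.69, 10.04 and 10.37 in treated RNA on arrays 1 to 4, against 9.77, 10.60, 9.89 and 10.83 in untreated RNA. The fitted log2 ratio was -0.07 ± 0.19 (95% interval -0.51 to 0.37, limma unadjusted p = 0.713, adjusted p = 0.999). For probe 2 it was 0.01 ± 0.17, with ratios of 0.24, -0.30, 0.54 and -0.44. Those of probe 2 were above 0 on both arrays with treated RNA in Cy5 and below 0 on both with treated RNA in Cy3, beside a dye term of 0.38 (limma unadjusted p = 0.0648). Among genes for the hyaluronan matrix, VCAN, the proteoglycan versican, was at -0.02, ITIH1, a heavy chain of inter-alpha-inhibitor, at 0.22 and HYAL2, a hyaluronidase, at 0.10, and none had an unadjusted p under 0.05.

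By role, the medians were -0.23 for the 1 subunit probe, -0.38 for the 3 feedback inhibitor probes, -0.30 for the 2 adhesion probes tested and -0.03 for the 2 TNFAIP6 probes. The medians of feedback inhibitor probes on arrays 1 to 4 were -0.24, -0.33, -0.51 and -0.47. Of these 3 probes 2 are of NFKBIA, and on array 4 TNFAIP3 went the other way, at 0.29. The medians of adhesion probes were -0.39, -0.17, -1.06 and -0.15, where array 3 is ICAM1 alone. Of the gene pairs measured on 4 arrays, each gene by its brightest probe, TNFAIP3 and ICAM1 had the least spread in their difference, 0.04 ± 0.20 (SD, n = 4). The difference of both feedback genes, NFKBIA minus TNFAIP3, ran from -1.09 to 0.73, with NFKBIA lower on array 4 alone.

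**Figure D3:**
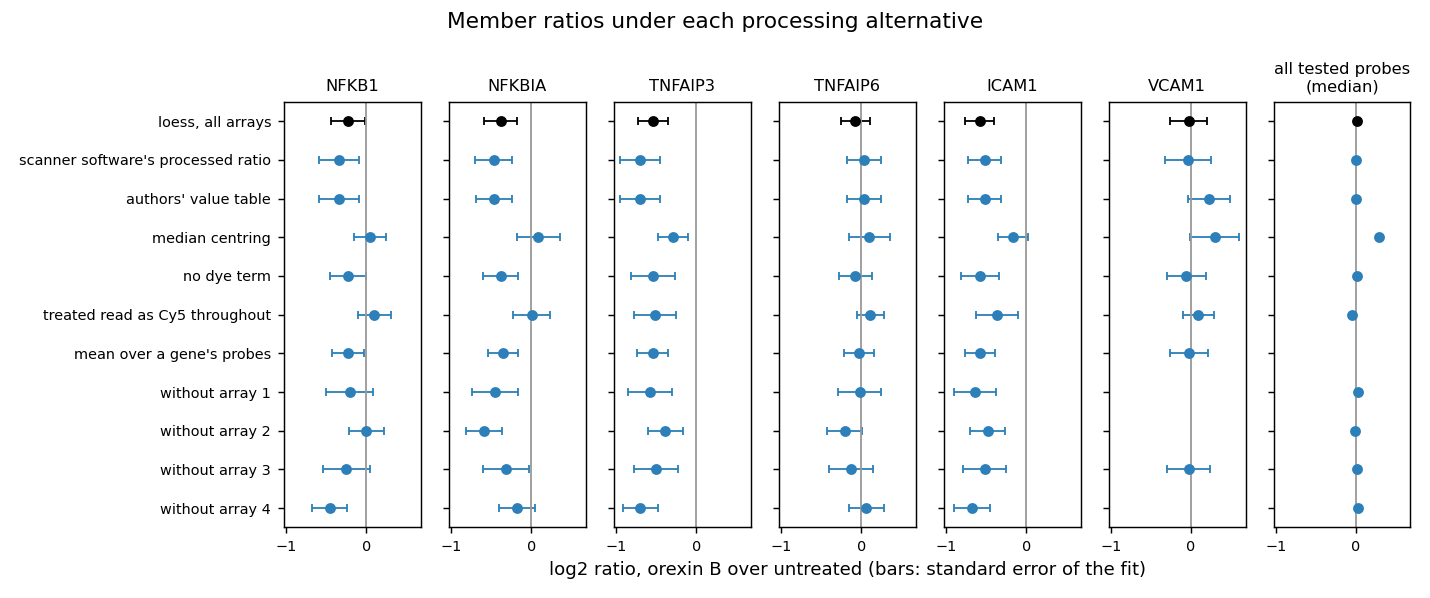
Fitted log2 ratio of each tested member, with its standard error, under loess with all arrays and under alternatives, beside the median of all tested probes. Alternatives that changed only the signal filter or the prior variance of the fit are not drawn. ICAM1 and TNFAIP3 lie below 0 under each setting, and under median centring the median of all tested probes stands at 0.28.

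No gene of the wider pathway was called. Of 121 listed genes that are no members, 64 had a probe that could be named and 45 were tested. Among these 45, 33 had a lower and 12 a higher ratio by their brightest probe (median -0.15). A lower ratio was found for 56.1% of all tested named genes. The limma fit called 0 of them at an adjusted p under 0.05, with 4 lower and 1 higher at an unadjusted p under 0.05, against 3.91% and 1.83% of the named genes. The 4 were BCL2A1, a survival factor (-1.27), the chemokines CCL5 (-0.81) and CXCL8 (-0.59), and interleukin 1 beta (IL1B, -0.46). PTGS2, the inducible cyclooxygenase, was the higher one at 0.66. The cytokine targets as a list had 10 lower and 6 higher of 16 tested (median -0.11). TNF, tumour necrosis factor itself, was at 0.02, the chemokine CCL2 at -0.02, interleukin 1 alpha (IL1A) at 0.11, and lymphotoxin alpha (LTA) and the plasminogen activator PLAU at 0.39 each. LTA and PLAU were above 0 only on arrays 1 and 3, with treated RNA in Cy5, and their dye terms were 0.69 and 0.77. LTA stood at 1.80 on array 3. The dye terms of the 4 lower genes ran from -0.50 for CXCL8 to 0.24 for IL1B.

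The 7 tested receptor genes were below 0 by their brightest probe (median -0.22), though a second probe of TLR3 was at 0.14. Among them were TLR4 (-0.22 ± 0.17), the receptor for bacterial lipopolysaccharide, and TLR2 (-0.88 ± 0.50), whose value rests on -2.99 on array 1. Kinases and adaptors had a median of -0.04 over 6 genes, with TRAF6, a ubiquitin ligase below interleukin 1 and Toll-like receptors, at -0.31 ± 0.17 and CHUK, the kinase IKK alpha, at 0.10 ± 0.27. TNIP1, which works with A20, was at -0.17 ± 0.19. The survival genes XIAP (-0.43 ± 0.19) and CFLAR (-0.31 ± 0.17) had fitted ratios near that of NFKBIA. On single arrays XIAP differed from NFKBIA, at -1.57, 0.73, -1.09 and 0.23, with a dye term of -0.91. ITGB2, the beta 2 chain of the integrins that bind ICAM1, was at -0.49 ± 0.22. Its ratios on arrays 1 to 4 were -0.20, -0.20, -0.33 and -1.22, so the size rests largely on array 4, where ICAM1 was at -0.02. Of the other adhesion genes, ICAM3 was at -0.29 ± 0.21, ICAM2 at -0.01 ± 0.18 and SELP, the platelet and endothelial P-selectin, at 0.19 ± 0.23.

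**Figure D4:**
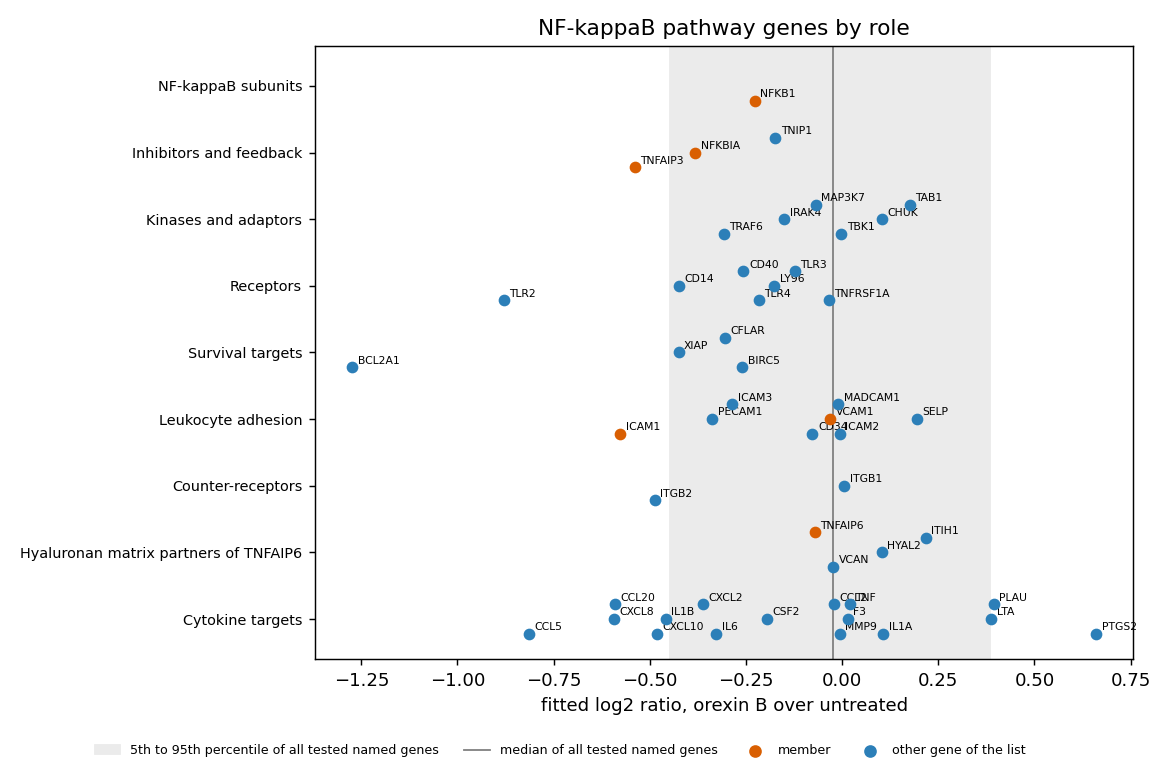
Fitted log2 ratio of every tested gene of the pathway lists by role, members in orange, with the range from the 5th to the 95th percentile of all 1637 tested named genes (-0.45 to 0.38) in grey. ICAM1 and TNFAIP3 lie left of that range, and the other 4 tested members lie inside it.

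Vessels and leukocytes carry several of these genes, and their markers are given here beside the 56.1% of named genes with a lower ratio. The 4 tested endothelial markers were below 0 by their brightest probe (median -0.21, array medians 0.23, -0.28, -0.55 and -0.30), with CDH5 at -0.39 ± 0.17, PECAM1 at -0.34 ± 0.27, CLDN5 at -0.08 ± 0.20 and VWF at -0.07 ± 0.23. The 3 PECAM1 probes ran from -0.34 to 0.08. Summed over the 4 endothelial markers, the log2 level was 14.18 to 14.96 in treated RNA and 14.27 to 15.13 in untreated RNA. Of 6 myeloid markers 5 were lower (median -0.41, array medians -0.11, -0.23, -0.39 and -1.16). LYZ was at -0.68 ± 0.25 by its brightest probe, with -1.59 on array 4. The 3 LYZ probes ran from -0.68 to -0.33. The sum over the 6 myeloid markers was 13.01 to 13.63 in treated RNA and 13.18 to 14.56 in untreated RNA. MRC1 was below the signal filter.

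All 4 tested T and NK cell markers were lower (median -0.26, array medians -0.11, -0.63, -0.07 and -0.58), with CD3D, CD3E, CD2, CD8A and CD4 below the filter. The sum over the 4 tested markers was 11.12 to 12.74 in treated RNA and 11.09 to 13.30 in untreated RNA. Of 5 epithelial markers 4 were lower (median -0.26), with a sum from 15.62 to 16.64 in treated RNA and from 15.98 to 17.05 in untreated RNA, and the 3 stromal markers were all higher (median 0.20). The array medians of epithelial markers, -0.77, -0.65, -0.43 and 0.61, share the higher value on array 4 with TNFAIP3 (0.29). Smooth muscle and pericyte markers were lower for 3 of 4 (median -0.14).

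Among markers of the conceptus and of the endometrium, TFAP2C and SPP1 had ratios larger in size than that of any tested member. TFAP2C, a trophoblast transcription factor, was at 1.14 ± 0.19 by its brightest probe (limma unadjusted p = 0.000583, adjusted p = 0.999). That probe was higher on 4 of 4 arrays, and the other tested TFAP2C probe was at 0.55. IL1B2, the conceptus form of interleukin 1 beta, was at -0.42 ± 0.18. IL1B2 and IL1B are close copies, so their probes may share signal. TFAP2C and IL1B2 had a summed log2 level of 11.29 to 11.76 in treated RNA and 10.40 to 11.24 in untreated RNA. The conceptus markers IFNG and GATA3 were below the filter. Of the endometrial genes, IHH was at -0.51 ± 0.20 (limma unadjusted p = 0.0353), SPP1 at 0.77 ± 0.36, PGR at 0.32 ± 0.21 and ESR1 at 0.06 ± 0.20. No marker gene was called, and the part of cell make-up in the member ratios was not tested.

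Genes with ratios like those of the 3 members of lowest p were taken from 1599 other named genes, by the root mean square distance between log2 ratios over the 4 arrays. For ICAM1 they included PYGL, a glycogen phosphorylase (distance 0.178), and IRF1, an interferon-inducible transcription factor (0.184). IRF1 had ratios of -0.70, -0.27, -0.75 and -0.08, so its near-zero array was also array 4. For TNFAIP3 they included CD14, the co-receptor for lipopolysaccharide (0.174), and the translation factor gene EIF4G1 (0.176). CD14 had ratios of -0.64, -0.33, -1.04 and 0.31. For NFKBIA they were USP18, an interferon-induced protease (0.141), HCST, a signalling adaptor of NK and T cells (0.251), and ITGB2 (0.252). The distances are descriptions over 4 arrays that share the dye layout.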

How the data were processed

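Values came from 4 two-colour arrays (design 026440). Spot and background intensity per channel, and a log10 ratio of Cy5 over Cy3, were written by Agilent Feature Extraction 10.7.3.1, per the file headers. The log2 ratios of the authors' deposited table run as treated over untreated. Set against the scanner's ratio, it has the same scale, is not centred (column medians 0.18, 0.29, 0.01 and 0.03) and turns arrays 2 and 4, as the dye labels do. A labelling protocol shared by all samples can be read as treated RNA in Cy5 throughout, which was run as an alternative.

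From the median intensities, background was corrected by normexp (offset 50) and each array was normalised by loess, in which controls and outlier spots had weight 0 (limma 3.58.1, R 4.3.3). Signals per channel were put on 1 scale by Aquantile. Tested probes were fitted with treatment and dye terms (2 residual and 5.09 prior degrees of freedom), with two-sided p-values adjusted by Benjamini-Hochberg over all 13778. Of these, 211 lacked an array, and 4 further probes passed the filter but had no separable terms. The fit was tested on simulated data. For a gene with several probes, its value is that of the brightest tested one. Symbols come from RefSeq (Sscrofa11.1), by accession without version. The files name no build, so no coordinates are given, and probe sequences are not used here. The members and lists were chosen with earlier results of these data known. Every member probe is described, other genes only from the pathway and marker lists or from the 3 nearest to a member, of which 1 gene is not reported here.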

Additional observations from a re-analysis of the deposited data

How the results depend on the processing

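In the 12 alternatives that count probes, the limma count over all probes was 0 except without array 2, where it was 17, so that leaving out an array gave 0 to 17. Each of the 12 counts held 0 member probes. ICAM1 and TNFAIP3 stayed below 0 in all 13 alternatives, at -0.67 to -0.16 and -0.70 to -0.28, with an adjusted p from 0.293 and 0.275 upwards. With median centring the median of all tested probes moved to 0.28 and that of the member probes to 0.069, and 4 genes changed sign: NFKB1 (0.048), NFKBIA (0.090), TNFAIP6 (0.10) and VCAM1 (0.29). Relative to all probes they stood at -0.23, -0.19, -0.18 and 0.01. With treated RNA read as Cy5 on all arrays, the medians were -0.050 for all probes and 0.096 for members, and NFKB1 (0.10), NFKBIA (0.0067), TNFAIP6 (0.12) and VCAM1 (0.092) changed sign. TNFAIP6 also turned with the scanner's ratio and the authors' table (0.037 each) and ranged from -0.21 to 0.065 with an array left out. VCAM1 also turned with the authors' table (0.23), which keeps the array 3 spot. With the scanner's ratio and that spot left out, VCAM1 was at -0.043. The cause was not tested. VCAM1 could not be fitted without array 1, 2 or 4. With 4 arrays and 2 residual degrees of freedom the precision is limited, and for SELE few Cy3 spots were marked well above background.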

Other observations

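In the authors' deposited table, both TNFAIP6 probes alternated with the dye layout. Probe 1 had log2 ratios of 0.40, -0.32, 0.75 and -0.68 on arrays 1 to 4, and probe 2 had 0.28, -0.27, 0.65 and -0.51, so each was above 0 wherever treated RNA was in Cy5. After loess, probe 1 no longer alternated (-0.06, 0.08, 0.15 and -0.46).

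In the same authors' deposited table VCAM1 stood at 1.06 on array 3, where the scanner software marked the spot as an outlier, against -0.36 to 0.23 on the other arrays. SELE spread widely there, from -1.58 to 1.19 for probe 1 and from -0.81 to 1.38 for probe 2.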
